A study of Apis mellifera with 13 samples.

Results

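The genes described here encode mitochondrial ribosomal proteins, and they were taken as every gene of the deposited tables whose symbol begins with mRpL or mRpS and a number. The rule gave 56 of the 13414 genes, 34 named for the large subunit (mRpL) and 22 for the small subunit (mRpS). The rule itself uses no measured value, although the genes were chosen with earlier results of these data known. They were followed in RNA-seq libraries of honey bee (Apis mellifera) antennal flagella, the long outer segment of the antenna that carries the olfactory receptor neurons.

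Mitochondria keep a small genome of their own, and the few proteins it encodes, nearly all of them subunits of the respiratory chain and of ATP synthase, are made on a dedicated ribosome. The RNA of this mitoribosome comes from the mitochondrial genome, whereas all of its proteins are encoded in the nucleus, made by cytosolic ribosomes and imported. Part of these proteins descend from the bacterial ancestor and part were added during the evolution of eukaryotes. In mammals the products of the genes called mRpS30 and mRpS18A sit in the large subunit despite their names, and the grouping used below follows the symbols alone.

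The 13 libraries fall into 4 groups. VSH bees (Varroa sensitive hygiene, 4 libraries) were individually marked workers that had been watched opening, widening or emptying brood cells infested by the mite Varroa destructor, and NVS bees (4 libraries) were marked workers of the same observation hive that were watched for days and not seen at such work. Foragers (FOR, 2 libraries) were caught returning with pollen, and nurses (NUR, 3 libraries) with the head in cells of young larvae, both in standard hives. The marked VSH and NVS bees had emerged from brood of a donor colony that was selected for strong VSH behaviour, whereas the foragers and nurses came from the standard hives. The colonies were hybrids of the subspecies ligustica and carnica, and no treatment or mutation separated the groups. Virus load did differ, however. According to the paper, reads from the bee viruses DWV and VDV took up a significantly larger part of the NVS libraries than of the VSH libraries. Among nurses and foragers it found such reads in some samples only. Whether virus load bears on the mitoribosomal values was not tested. Each library pooled bees, 4 pairs of antennae according to the labels, whereas the methods describe larger pools made by combining such samples. Replicates were therefore separate pools. The p-values measure the spread between pools, or between the differences within age-matched pairs where the fit is blocked by pair. Where VSH and NVS bees were compared by group alone, that spread includes the age differences between pools. The marked bees shared the observation hive, so that spread between hives does not enter their comparison, whereas it may enter that of foragers and nurses. The mean age was 7.5, 9.75, 12.5 and 17 days in VSH1 to VSH4 and 7.5, 9.5, 12.25 and 17.5 days in NVS1 to NVS4, so that libraries of the same number were matched by age. The labels give no age for FOR2, FOR3 and NUR1 to NUR3.

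Values are normalised pseudo-counts, that is read counts per gene brought by the authors to 1 common library size. They were normalised in 1 table for VSH and NVS and in another for FOR and NUR, and levels were compared only within a table. The values are not per length, so that a higher value of 1 gene than of another does not order their transcripts. In bulk tissue a lower value can come from fewer cells of a type or from less RNA per cell, and these cannot be told apart here. As for the label of the tissue, 7 of 8 listed antennal sensory genes (odorant receptors, odorant-binding and chemosensory proteins) were found and summed to at least 762482 in every library.

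Of the 56 genes, 53 had values above 0 in the libraries and passed the filter on low values in both tables. The other 3, mRpL41, mRpL46 and mRpL53, were listed at 0 in all 13 libraries. They are among 1844 genes, 13.7% of the tables, listed so. Among these 1844 are also genes that every cell uses, including 7 of 66 cytosolic ribosomal protein genes, so that the entry says only that the gene is listed at 0. The genes around them were listed at 0 as well. In the order of genes of the later assembly Amel_HAv3.1, with 5 genes counted on each side, all 10 neighbours of mRpL46, 9 of 10 neighbours of mRpL53 and the 4 neighbours found for mRpL41 were at 0. Of the 516 neighbours of the 52 genes above 0 that were matched to this assembly, 18 were at 0 (3.49%). The gene mRpL53 overlaps AGO1 in that assembly, and AGO1, which encodes an Argonaute protein of small RNA pathways, was among those at 0.

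In the same assembly 20 of these 52 genes overlap another gene of the tables. These include the overlapping pair mRpL13 and mRpL52, the pair mRpL14 and mRpS28, and mRpL20 beside Tpi (triosephosphate isomerase). The libraries were made with a stranded kit, but whether the counting used strand is not given in the sources used here. How reads that lie in both genes were counted is not given either. Values of overlapping genes may hold reads of the partner or lack shared reads. Among the genes given below this holds for mRpL1, mRpL2, mRpL4, mRpL22, mRpL27, mRpL35, mRpL40, mRpL45, mRpL48, mRpS28 and mRpS29. The gene mRpL22 overlaps Rpl39, which encodes a cytosolic ribosomal protein.

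The mean value of the 53 genes spanned 319 to 2695 in the VSH and NVS table (median 891) and 610 to 5731 in the FOR and NUR table (median 1776). The 5 highest means belonged to the same genes in both tables, namely mRpS14, mRpL43, mRpS18B, mRpL47 and mRpS5, and the 3 lowest to mRpL48, mRpS7 and mRpL19. The gene mRpS14 encodes a small subunit protein whose bacterial counterpart lies in the head of the subunit. Its values were 2332, 2475, 3348 and 2722 in VSH1 to VSH4, 2691, 2381, 2938 and 2670 in NVS1 to NVS4, 6062 and 5205 in FOR2 and FOR3, and 5616, 6664 and 5110 in NUR1 to NUR3. The highest value among VSH and NVS bees was that of VSH3, and both group ranges overlapped. At the other end, mRpL48 had 251, 311, 451 and 282 in VSH1 to VSH4 and 340, 296, 329 and 294 in NVS1 to NVS4.

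Libraries of the same group also differed in these genes. The median gene had a standard deviation within groups of 0.143 on the log2 scale among VSH and NVS libraries, against 0.120 for 4945 other genes in the same range of means. Among FOR and NUR libraries it was 0.145, against 0.142 for 5044 other genes. Much of this spread was shared, because the same libraries were high for most of the genes. VSH3 was the highest VSH library for 41 of 53 genes and NVS3 the highest NVS library for 33 of 53, and these libraries come from bees of similar age (12.5 and 12.25 days). FOR2 exceeded FOR3 in 48 of 53 genes. NUR2 was the highest nurse library for 40 genes and NUR3 the lowest for 32.

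**Figure D1:**
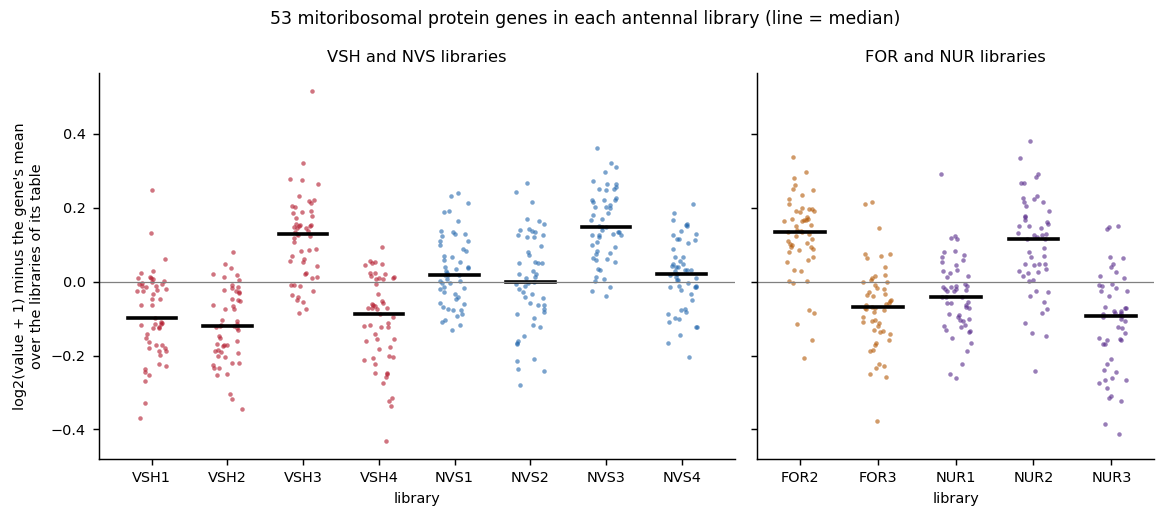
Each point is 1 of the 53 mitoribosomal protein genes in 1 library, given as log2(value + 1) minus the mean of that gene over the libraries of its table, and the black line is the median of the genes. The medians of VSH1, VSH2 and VSH4 are -0.10, -0.12 and -0.09 and that of VSH3 is 0.13, and the NVS medians run from 0.00 (NVS2) to 0.15 (NVS3). FOR2 (0.13) and NUR2 (0.12) lie above the other FOR and NUR libraries.

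Summed over the 53 genes, the mitoribosomal values made up 0.258%, 0.256%, 0.289% and 0.264% of the library total in VSH1 to VSH4, against 0.288%, 0.278%, 0.308% and 0.279% in NVS1 to NVS4. The group means were 0.267% ± 0.0154 in VSH bees and 0.288% ± 0.0141 in NVS bees (SD, n = 4 each). VSH3 lay above NVS1, NVS2 and NVS4, and the other 3 VSH libraries lay below every NVS library, so that the groups overlapped through VSH3. In the other table the share was 0.315% and 0.279% in FOR2 and FOR3, against 0.290%, 0.321% and 0.272% in NUR1 to NUR3, and these groups overlapped over most of their range.

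Between VSH and NVS bees no mitoribosomal protein gene passed the test, although most of them had somewhat lower values in VSH bees. Of the 53 genes 47 had a lower mean log2 value in VSH bees (88.7%), where 50.6% of all 10204 genes tested did, and the median difference was -0.10, against 0.00 for all genes. The count called was 0 with limma at an adjusted p under 0.05, where 4 genes of the whole table were called (0.0392%). The authors' own test on counts called far more genes, both here and between foragers and nurses. A count of 0 therefore does not show that these genes were unchanged. At an unadjusted p under 0.05, 5 of 53 genes were lower in VSH bees (9.43%) and 0 higher, beside 5.43% and 5.73% of all genes. The 4 VSH values all lay below the 4 NVS values for 4 of 53 genes (7.55%), beside 3.26% of all genes, and above them for none, beside 2.86%. The lowest bound of the 53 separate 95% intervals was -0.57 and the highest 0.35 on the log2 scale. Of these intervals 52 lay within 0.5 of 0. Each holds for its gene alone, so that they set no joint bound on the differences.

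**Figure D2:**
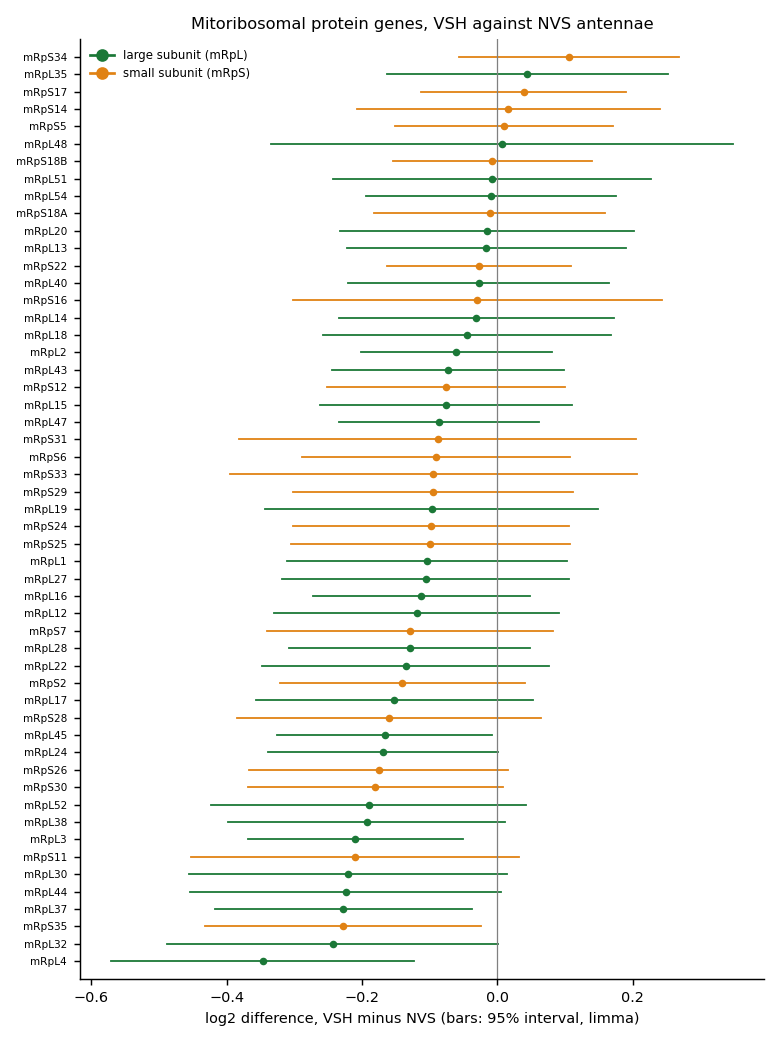
The log2 difference of VSH minus NVS for each of the 53 genes (point) with its 95% interval from limma (bar), ordered by the difference, with large subunit genes in green and small subunit genes in orange. Of the points 47 lie left of 0, and 5 intervals do not reach 0, all on the lower side.

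The 4 genes with the smallest p were mRpL4, mRpL3, mRpL37 and mRpS35. The bacterial counterpart of mRpL4 reaches into the tunnel through which the new protein leaves the ribosome. The gene had 572, 545, 725 and 562 in VSH1 to VSH4, against 780, 755, 836 and 676 in NVS1 to NVS4. VSH1, VSH2 and VSH4 lay below every NVS library and VSH3 above NVS4, so that the groups overlapped at that library. The log2 difference was -0.35 (SE 0.10, limma unadjusted p = 0.00537, adjusted p = 0.261).

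The protein encoded by mRpL3 belongs to the core of the large subunit, and in bacteria it reaches close to the peptidyl transferase centre, where amino acids are joined. Its values were 1471, 1305, 1431 and 1229 in VSH1 to VSH4, against 1660, 1531, 1586 and 1498 in NVS1 to NVS4. Every VSH library lay below every NVS library, at a log2 difference of -0.21 (SE 0.07, limma adjusted p = 0.326). The mitochondria-specific large subunit gene mRpL37 had 555, 644, 621 and 616 in VSH1 to VSH4, against 673, 779, 758 and 648 in NVS1 to NVS4. Its groups did not overlap, by a margin of a few units between VSH2 and NVS4, and the log2 difference was -0.23 (SE 0.09, limma adjusted p = 0.360).

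The gene mRpS35, for a small subunit protein with no bacterial counterpart, had 607, 565, 717 and 554 in VSH1 to VSH4, against 697, 715, 766 and 672 in NVS1 to NVS4. VSH3 again lay among the NVS values, and the log2 difference was -0.23 (SE 0.09, limma adjusted p = 0.392). These 4 genes thus differed by less than the test across all genes requires, and each kept its direction when any single library was left out, with adjusted p values of at least 0.0558 over every alternative.

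The remaining genes were read by the place of their proteins in the ribosome. The genes in this paragraph and the next, mRpL44, mRpL45, mRpS34 and mRpS17 included, were chosen after their values were seen. Around the exit tunnel, mRpL22 and mRpL24 (tunnel wall and rim in bacteria) had log2 differences of -0.14 and -0.17, and mRpL45, which in mammals helps to hold the ribosome at the inner membrane, had -0.17 (limma adjusted p = 0.422). Near the peptidyl transferase centre, mRpL2, mRpL16 and mRpL27 had -0.06, -0.11 and -0.11. The stalk genes mRpL1 and mRpL12, whose bacterial counterparts handle the leaving tRNA and recruit translation factors, had -0.10 and -0.12. In the small subunit, mRpS12, of the decoding site in bacteria, had -0.08, and mRpS29, a GTP-binding protein known in mammals as DAP3, had -0.09. None of these passed the test. Besides mRpL3 and mRpL37, the genes without overlap between the groups were mRpL45 and mRpL44, and mRpL44 (with a fold related to RNase III) had a log2 difference of -0.22 (limma adjusted p = 0.460).

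Few genes pointed the other way. Among them mRpL35, mRpS14, mRpS5 and mRpL48 had log2 differences of 0.04, 0.02, 0.01 and 0.01. The small subunit gene mRpS34, specific to mitochondria, had 1565, 1593, 1775 and 1476 in VSH1 to VSH4, against 1461, 1512, 1603 and 1374 in NVS1 to NVS4. It was higher in VSH bees within each age-matched pair, while the group ranges overlapped, and the log2 difference was 0.11 (SE 0.08, limma adjusted p = 0.616). The only other gene lower in VSH bees in none of the 4 pairs was mRpS17, a core protein with a bacterial counterpart. It had 969, 952, 1003 and 998 in VSH1 to VSH4, against 965, 874, 989 and 995 in NVS1 to NVS4, at a log2 difference of 0.04.

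**Figure D3:**
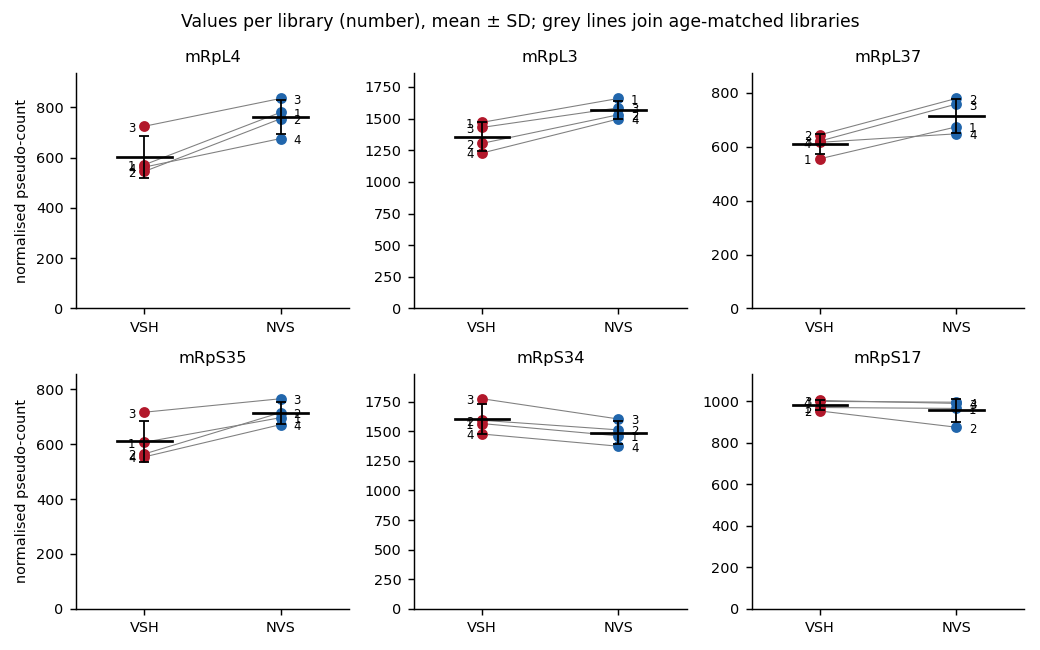
Normalised pseudo-counts of 6 mitoribosomal protein genes per library (points with the library number), with the group mean and SD (black, n = 4 each), VSH on the left of each panel and NVS on the right, and grey lines between age-matched libraries. For mRpL4, mRpL3, mRpL37 and mRpS35 all 4 lines run from a lower VSH value to a higher NVS value, and for mRpS34 and mRpS17 no line does.

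Because libraries of the same number deviated together, the groups were also compared within the age-matched pairs. The number of the 53 genes with a lower value in the VSH library was 40 in pair 1, 42 in pair 2, 32 in pair 3 and 45 in pair 4, at median log2 differences of -0.10, -0.11, -0.03 and -0.10. Of all genes 50.3%, 50.3%, 51.7% and 50.1% were lower in pairs 1 to 4, at medians of -0.0011, -0.0020, -0.0108 and -0.0004. Pair 3 holds the libraries in which the mitoribosomal genes were highest, and there their median was the closest to 0. In all 4 pairs 21 of the 53 genes (39.6%) were lower in VSH bees, where 12.8% of all genes were. With the pair number as a block, limma called 127 of the 10204 genes (1.24%), of which 0 were mitoribosomal. At an unadjusted p under 0.05 the blocked fit had 13 of 53 genes lower in VSH bees (24.5%) and 0 higher, where 8% of all genes were lower and 9.08% higher at that p. The smallest adjusted p in the blocked fit was that of mRpL4 (0.0558), followed by mRpL3 (0.109). Genes of 1 complex are not independent of each other, and a shift shared by the libraries moves many of them at once.

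The genes were also counted by class. Of the large subunit genes 29 of 31 were lower in VSH bees (median -0.11), and of the small subunit genes 18 of 22 (median -0.09). Of the proteins with a bacterial homologue 30 of 34 were lower (median -0.10), and of those without one 17 of 19 (median -0.09). At an unadjusted p under 0.05 in the blocked fit, 10 of 31 large and 3 of 22 small subunit genes were lower. So were 5 of 34 with a bacterial homologue and 8 of 19 without one, beside 8% of all genes. A difference between these classes was not tested. Genes of related systems did not share the direction. Of 59 cytosolic ribosomal protein genes tested, 54 were higher in VSH bees (median 0.11), with 0 called by limma. At an unadjusted p under 0.05, 6 were higher (10.2%), beside 5.73% of all genes. In the blocked fit 21 were higher at that p, where 9.08% of all genes were. Of 31 oxidative phosphorylation genes found by symbol 18 were higher (median 0.02). The genes mtTFB1 and mtTFB2, listed as mitochondrial gene expression factors by symbol, went in opposite directions, and both differences were below 0.1 in size.

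The ratio of the summed cytosolic to the summed mitochondrial ribosomal protein values does not depend on how a library was scaled. It was 10.3, 10.6, 11.7 and 10.7 in VSH1 to VSH4, against 9.09, 8.71, 9.67 and 10.1 in NVS1 to NVS4. All VSH libraries lay above all NVS libraries, VSH1 and NVS4 being the nearest. In the other table the ratio was 9.58 and 10.6 in FOR2 and FOR3, against 11.3, 9.63 and 12.3 in NUR1 to NUR3, with overlap. These ratios were formed after the values had been seen and are given as a description.

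Markers of other cell types also differed between the libraries. The summed value of the 6 muscle genes found (of 11 listed) was 156 to 1712 in VSH libraries and 144 to 252 in NVS libraries, and that of 6 fat body and haemolymph genes was 1491 to 4756 in VSH libraries and 1117 to 1482 in NVS libraries, with VSH4 the highest of both lists and every VSH library above every NVS library in the fat body list. Haemocyte genes (4 of 4 found) summed to 1358 to 1934 in VSH libraries and 1040 to 1505 in NVS libraries, and 4 hypopharyngeal gland genes to 590 to 1303 in VSH libraries and 821 to 1322 in NVS libraries. No gene of these lists was at 0 in all 8 libraries. Without VSH4, 41 of the 53 mitoribosomal genes were lower in VSH bees, at a median of -0.09. The size of the shift depended on other libraries as well. The median was -0.06 without NVS3 (41 genes lower) and -0.06 without VSH2 (42 genes), and -0.15 without VSH3 (49 genes). Leaving out VSH4 cannot separate these cells from the group, as the other VSH libraries also lay above every NVS library in the fat body list. The part of these other cells in the mitoribosomal values was not tested.

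Age gave no common direction among these genes when all VSH and NVS libraries were kept. Without the number 4 libraries few slopes were negative, as given below. With the group as a second term, 27 of 53 had a positive slope and 26 a negative one, and 51.2% of all genes were positive. The median slope was 0.00 log2 per day, and limma called 0 of the 53 genes, beside 15 genes of the whole table (0.147%). At an unadjusted p under 0.05, 3 genes had a positive slope and 2 a negative one, beside 7% and 5.27% of all genes. The 95% intervals of the slopes ran from -0.07 to 0.07 log2 per day. All 5 genes with an unadjusted p under 0.05 were among the 19 tested that have no bacterial homologue.

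Among the 4 genes with the smallest p, mRpS31 and mRpL40 had negative slopes. The small subunit gene mRpS31, mitochondria-specific, had 1046, 810, 964 and 653 in VSH1 to VSH4, in order of age, and 900, 1024, 967 and 765 in NVS1 to NVS4. The lowest value of each group was that of the oldest bees, and the younger 3 libraries followed no order. The slope was -0.04 log2 per day (SE 0.01, limma adjusted p = 0.241), and it was -0.0012 without the number 4 libraries of both groups (limma adjusted p = 0.993). The large subunit gene mRpL40 had 678, 627, 597 and 555 in VSH1 to VSH4 and 636, 674, 623 and 567 in NVS1 to NVS4, at a slope of -0.02 (SE 0.01, limma adjusted p = 0.350).

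The slopes of mRpS33 and mRpL43 were positive. The small subunit gene mRpS33 had 662, 605, 879 and 804 in VSH1 to VSH4 and 688, 651, 941 and 871 in NVS1 to NVS4. The libraries of older bees, numbers 3 and 4, lay above those of younger bees in both groups, and the slope was 0.04 log2 per day (SE 0.02, limma adjusted p = 0.289). The large subunit gene mRpL43 had 1840, 2056, 2353 and 2189 in VSH1 to VSH4 and 2065, 2174, 2272 and 2336 in NVS1 to NVS4, at a slope of 0.02 (SE 0.01, limma adjusted p = 0.374).

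**Figure D4:**
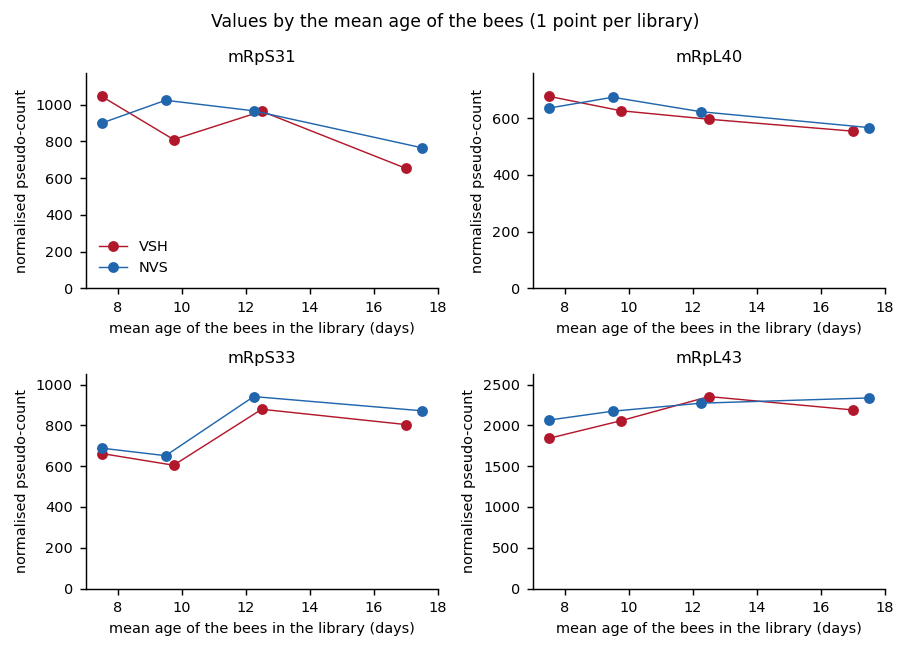
Normalised pseudo-counts of the 4 mitoribosomal protein genes with the smallest p for age, against the mean age in days of the bees of each library (1 point per library, VSH in red, NVS in blue). The lowest mRpS31 and mRpL40 values of each group belong to the oldest bees, and mRpS33 is higher in the 2 older libraries of each group than in the younger ones.

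The count of directions with age rested on the oldest bees. Without the number 4 libraries of both groups, 9 of the 53 genes had a negative slope and the median was 0.04 log2 per day. The oldest libraries were then those of number 3, in which most of these genes were high. VSH4 is also the library with the highest muscle and fat body values. A difference in slope between VSH and NVS bees was tested as an interaction. It was called by limma for 0 of the 53 genes and for 0% of all genes, and at an unadjusted p under 0.05 for 0 of the 53 genes, beside 2.86% of all genes. The smallest p among them were those of mRpL1 (0.0847) and mRpS28 (0.0872), both with an adjusted p of 0.999 in limma.

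Between foragers and nurses no mitoribosomal protein gene passed the test either. Of the 53 genes 34 were higher and 19 lower in foragers (35.8%), where 49.9% of all 10436 genes tested were lower, and the median log2 difference was 0.06, against 0.00 for all genes. The count called by limma was 0, beside 10 genes of the whole table (0.0958%). At an unadjusted p under 0.05, 1 gene was lower in foragers and 1 higher, beside 6.82% and 6.18% of all genes. Without overlap between the groups 7 genes were higher in foragers (13.2%) and 4 lower (7.55%), beside 16.1% and 16.5% of all genes, so that such separation was no more frequent here than in the table as a whole. With 2 forager libraries the intervals were wide, from -0.66 to 0.68 on the log2 scale.

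The direction of most genes depended on single libraries. Without FOR2, 34 of the 53 genes were lower in foragers, at a median of -0.04. Without FOR3 it was 9 genes, at a median of 0.15. Without NUR2 it was 12 genes (median 0.10), without NUR3 28 genes (median -0.01). No direction is therefore given for the genes as a group in this comparison.

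The gene with the smallest p was mRpL1, of the stalk beside the exit site of the tRNA in bacteria. It had 3576 and 3406 in FOR2 and FOR3, against 2472, 2658 and 2751 in NUR1 to NUR3. Both forager libraries lay above all nurse libraries, and the gap between the groups was larger than the range within either of them. The log2 difference was 0.41 (SE 0.10, limma unadjusted p = 0.00500, adjusted p = 0.204).

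The small subunit gene mRpS34, among the few with higher values in VSH bees, had 2497 and 2572 in FOR2 and FOR3, against 2873, 3386 and 3195 in NUR1 to NUR3. Both forager libraries lay below all nurse libraries, at a log2 difference of -0.31 (SE 0.11, limma adjusted p = 0.327). The tunnel rim gene mRpL24 had 3333 and 3315 in FOR2 and FOR3, against 2566, 3042 and 2792 in NUR1 to NUR3, with a log2 difference of 0.25 (SE 0.11, limma adjusted p = 0.403). The small subunit gene mRpS16, whose bacterial counterpart binds early during assembly, had 1583 and 1640 in FOR2 and FOR3, against 1393, 1443 and 1081 in NUR1 to NUR3. Its groups did not overlap, NUR3 lay well below the other nurses, and the log2 difference was 0.31 (SE 0.16, limma adjusted p = 0.456).

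**Figure D5:**
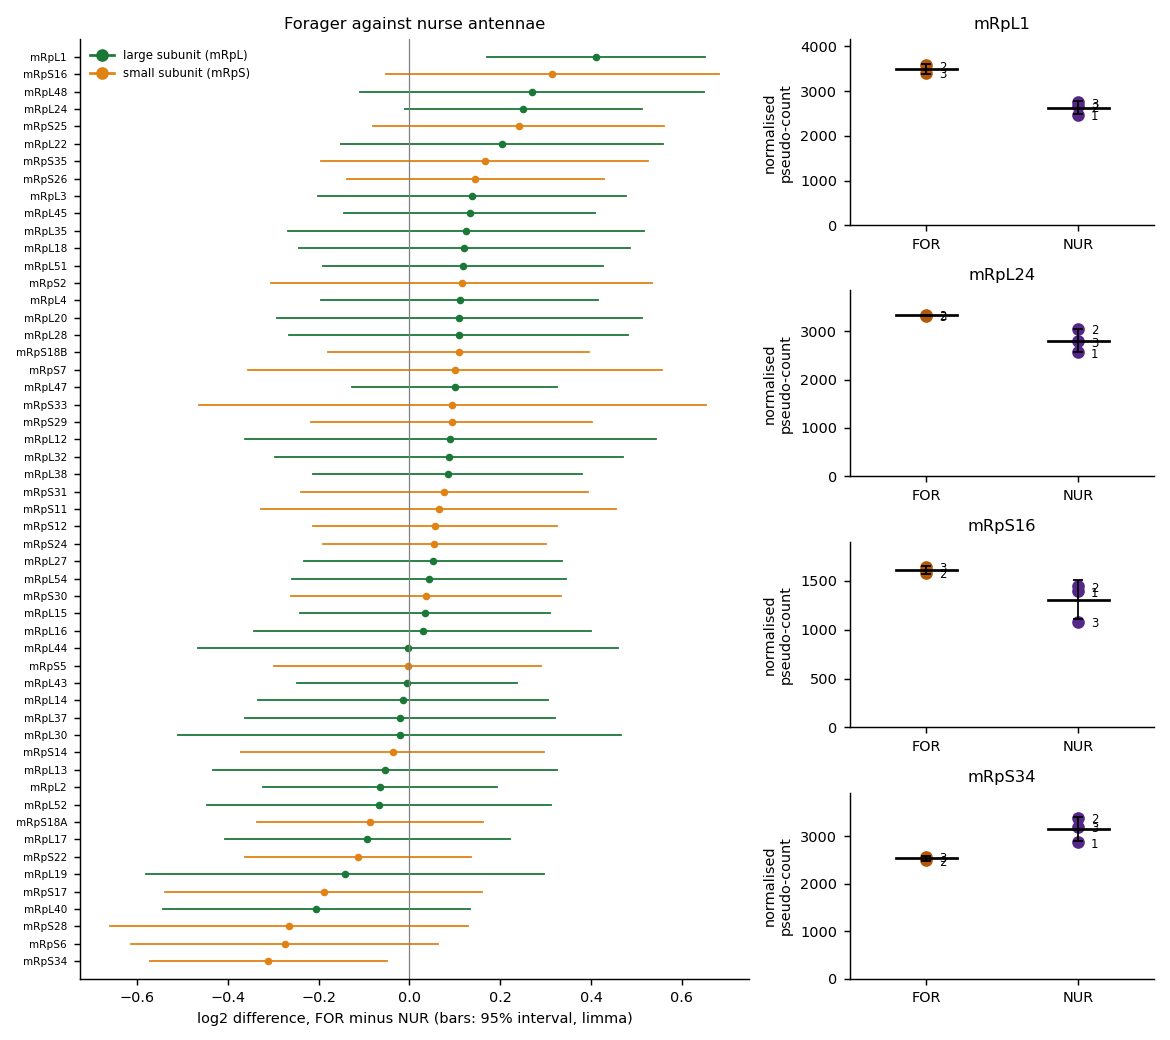
Left, the log2 difference of FOR minus NUR for each of the 53 genes (point) with its 95% interval from limma (bar), large subunit genes in green and small subunit genes in orange. Right, the normalised pseudo-counts of the 4 genes with the smallest p per library (points with the library number), with group means and SD, FOR on the left and NUR on the right. Both forager values of mRpL1, mRpL24 and mRpS16 lie above all nurse values, and both of mRpS34 lie below them.

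The genes that stood out between VSH and NVS bees had small differences here, with wider errors. The log2 differences of FOR minus NUR were 0.11 for mRpL4, 0.14 for mRpL3, -0.02 for mRpL37 and 0.17 for mRpS35, at limma adjusted p values between 0.694 and 0.966. By subunit, 20 of 31 large subunit genes (median 0.08) and 14 of 22 small subunit genes (median 0.06) were higher in foragers. Of the 59 cytosolic ribosomal protein genes 44 were lower in foragers (median -0.08), as were 22 of the 31 oxidative phosphorylation genes (median -0.07). Haemocyte genes summed to 1517 to 2039 in forager libraries and 2788 to 3263 in nurse libraries, without overlap, and their part in the mitoribosomal values was not tested. Muscle genes summed to 361 to 395 in forager libraries and 253 to 374 in nurse libraries, and hypopharyngeal gland genes to 1870 to 3526 in forager libraries and 770 to 1690 in nurse libraries, again without overlap. Of the fat body genes Hex70c was at 0 in all 5 libraries.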

How the data were processed

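RNA-seq libraries of antennal flagella from VSH (n = 4), NVS (n = 4), FOR (n = 2) and NUR (n = 3) bees were used. Per the submitters' processing notes and the methods, the authors used CASAVA 1.8.2, FastQC, TopHat2 with Bowtie2 2.2.3 on assembly 4.5, HTSeq 0.6.1p1 and edgeR 3.4.0. The deposited values (unit signal) are pseudo-counts normalised by relative log expression. In neither table was any value above 0 whole (0%, tolerance 1e-06), so that no count test was run. Column totals are nearly equal by construction and do not show the read depth of a library.

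Here log2(value + 1) was fitted with limma 3.58.1 (lmFit, eBayes with trend) in R 4.3.3, as two-sided tests. P-values were adjusted by the Benjamini-Hochberg procedure across the whole table, and genes under 0.05 were called. Differences on this scale understate changes of low genes. Genes needed a sum of at least 20 (VSH, NVS) or 15 (FOR, NUR). In the 8133 genes whose mean reached 50, deviations from the group means correlated at 0.161, 0.215, 0.276 and 0.388 in VSH and NVS pairs 1 to 4. VSH1 correlated more with NVS2 (0.279) than with NVS1, and VSH2 with NVS1 at 0.132. The blocked fit rests on the same-number correlations and on the matched ages. The scripts were tested on simulated data.

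Genes named are the 4 with the smallest p in each comparison, the 5 highest and 3 lowest by mean in each table, and those under the filter; others are said to be chosen afterwards. The genes and lists were chosen with earlier results of these data known. Classes by bacterial homologue follow the protein numbers (large subunit up to 36, and 47; small subunit up to 21, 24 and 28). Lists that needed gene descriptions could not be filled, and the oxidative phosphorylation list was chosen by symbol once the symbols had been seen. Gene order and overlaps come from RefSeq on Amel_HAv3.1, which matched 55 of the 56 genes; no coordinates are given, as the builds differ. Alternatives were pseudocounts of 0.5 and 4, no filter or a mean of at least 10, other scalings, the block and leaving out libraries.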

Additional observations from a re-analysis of the deposited data

Results flagged for a closer look

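Among VSH libraries VSH3 stood far from the others for 2 genes of the 40 groups of 4 libraries checked, and chance gives such a gap in about 1 of 20 groups. The value of mRpL24 was 1847 in VSH3 and 1523 in the next VSH library. The value of mRpL4 was 725 in VSH3 and 572 in the next. Both groups belong to the same library, which was the highest VSH library for 41 of the 53 genes, so that they are not separate events.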

How the results depend on the processing

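No mitoribosomal protein gene was called by limma under any alternative, and the 12 genes named for their p kept their direction. The deposited values do not show the depth per library, and the FOR and NUR comparison rests on 2 forager libraries. The cause of the shifts below was not tested. Counts called over all genes were the least stable. For VSH and NVS (4 genes) they were 2 with no filter and 0 to 11 without single libraries or pairs, for age (15) 0 with no filter and 0 to 61 without libraries, and for FOR and NUR (10) 4 with a pseudocount of 0.5, 4 with no filter, 4 at a mean of at least 10 and 0 to 76 without libraries. By single library, between VSH and NVS 7 genes were called without NVS1, 11 without NVS2 and 0 without VSH1, VSH2, VSH3, NVS3 or NVS4. For age 61 were called without VSH3, 4 without VSH2, 3 without VSH4 and 0 without VSH1, NVS1 or NVS4. Between FOR and NUR 76 were called without NUR2 and 0 without FOR2, FOR3 or NUR3. With the replicate block 127 genes were called between VSH and NVS, 2 to 213 when a pair was then left out (chosen after seeing the data), and 6 between FOR and NUR, whose libraries share only the numbers 2 and 3. Between VSH and NVS the median of the mitoribosomal genes ran from -0.15 without VSH3 to -0.06 without NVS3. Leaving out libraries moved the number of mitoribosomal genes with a negative age slope from 26 to between 9 and 29, with a median of -0.0075 to 0.038. It moved those with a negative slope difference from 26 to between 5 (without VSH4) and 44 (without NVS4), with a median of -0.0226 to 0.0417, and those lower in foragers from 19 to between 9 and 34.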
